A study of Mus musculus with 2 samples.

Results

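A set of 10 genes of heme breakdown and iron handling was examined for ATF4 CUT&Tag peaks in primary mouse neurons: Hmox1, Hmox2, Blvra, Blvrb, Fth1, Ftl1, Tfrc, Slc40a1, Slc11a2 and Ireb2. They were chosen by name, among 21887 protein-coding genes of the RefSeq gene table, for their place in heme and iron metabolism. Every peak that overlapped one of the genes or the 10 kb on either side of it was taken. In CUT&Tag, an antibody brings a transposase to the protein of interest in permeabilized cells, and the DNA fragments cut out around it are sequenced. The study made 2 libraries, 1 with an antibody against ATF4 and 1 with IgG, each from 100000 neurons of the cortex and hippocampus of C57BL/6 embryos. Whether hemin had been added to the neurons of this assay is not given in the sources used here. The ATF4 peak list was analysed and the IgG library was not used here, so the values below have no replicate error. The sources used here do not state whether IgG served as the control in peak calling, so the background behind each fold enrichment, p-value and q-value may come from either library. A peak list gives no expression, so the labelled cell type could not be checked against marker genes.

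Heme is opened by the heme oxygenases, which release iron, carbon monoxide and biliverdin, and biliverdin is then reduced to bilirubin by the biliverdin reductases. The freed iron is held in ferritin, built from heavy and light chains, or leaves the cell through ferroportin. Iron enters through the transferrin receptor and the transporter DMT1. Hemin, the heme derivative with which the study injured neurons, feeds this pathway after a hemorrhage. ATF4 is a stress-induced transcription factor whose classical target sites are composite C/EBP-ATF elements at genes of amino acid metabolism. Heme oxygenase 1 is best known as a gene that NRF2 induces and BACH1 represses through antioxidant response elements.

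Of these 10 genes, 3 met this criterion: Hmox1, Fth1 and Slc11a2, with 1 peak each. The share was 30.0%, beside 24.8% of all protein-coding genes under the same rule (5437 of 21887). All 3 peaks were small. Their summits held 5, 4 and 3 fragments, beside a median of 4 over the 7873 peaks of the library. No peak of 6 or more fragments lay in the window of any of the 10 genes, while 8.38% of all protein-coding genes had one. Hmox2, Blvra, Blvrb, Ftl1, Tfrc, Slc40a1 and Ireb2 had no called peak in their windows.

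**Figure D1:**
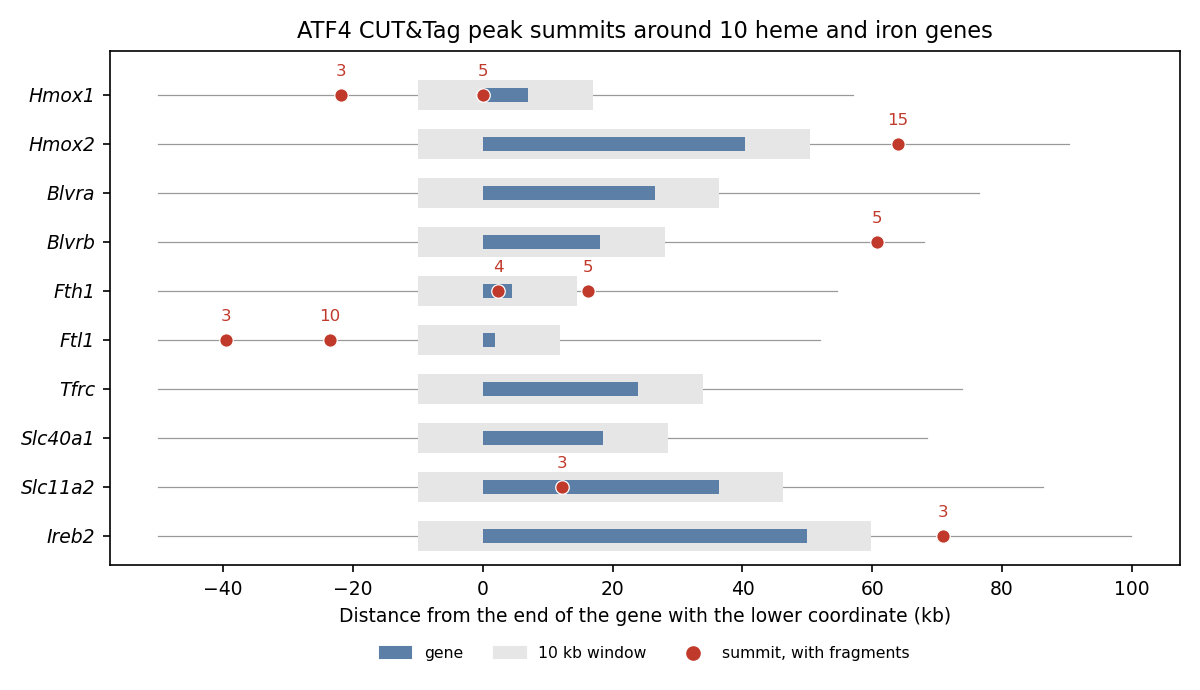
Peak summits (red points) around each of the 10 genes, drawn on the distance in kb from the end of the gene with the lower coordinate; blue bars are the genes, grey bars the genes with 10 kb on either side, thin lines the 50 kb beyond each end, and the number above each point is the count of fragments at the summit. Summits fall in the grey windows of Hmox1, Fth1 and Slc11a2 only, with 5, 4 and 3 fragments, and the summits of 15 and 10 fragments lie outside the windows of Hmox2 and Ftl1.

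Among the heme oxygenases, Hmox1, which encodes the inducible enzyme, carried the peak closest to a gene end. Hmox1 lies on chromosome 8 from 75093618 to 75100593 (GRCm38.p6, 6.98 kb). The peak, from 75093487 to 75093672, was 186 bp wide and overlapped the lower-coordinate end of the gene, with its summit 10 bp outside that end. The fold enrichment (fragments at the summit relative to the local background of the peak caller) was 4.61, with a -log10 p of 6.09 and a -log10 q of 2.78 (q = 0.00166). The summit held 5 fragments (exact Poisson 95% interval 1.62 to 11.7, counting error only). By -log10 p it ranked 3890 of 7873, so that 49.4% of all peaks had a larger value, and by fold enrichment it ranked 2795. No other gene of the table lay within 1 kb of this summit. The background expected at this position was 3.54 times the lowest in the list, against a median of 1.82 times over all peaks. A second summit, 21.8 kb outside the same end, held 3 fragments and was nearest to Tom1.

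Hmox2, the constitutive heme oxygenase, is on chromosome 16 from 4726361 to 4766742 and had no called peak in the gene or within 10 kb. The nearest peak began 23.3 kb beyond its upper end, from 4790000 to 4790488, and had the most fragments of those found within 50 kb of any of the 10 genes. At its summit 15 fragments were stacked (8.40 to 24.7), a 10.4-fold enrichment (q = 6.94e-14) at rank 247 by -log10 p. Its summit lay inside Cdip1, 23 bp from an end of that gene.

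The biliverdin reductases, which complete heme breakdown, had no called peak in their windows. Blvra, on chromosome 2 from 127070629 to 127097084, was 124.3 kb from its nearest peak, which held 4 fragments inside Snrnp200. Blvrb, on chromosome 7 from 27447978 to 27465981, was 42.6 kb from its nearest peak, with 5 fragments inside Prx.

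In the ferritin genes the light and heavy chains differed in whether a peak was called. Fth1, the heavy chain with the ferroxidase activity, lies on chromosome 19 from 9980600 to 9985111 (4.51 kb) and held a peak from 9982946 to 9983233. The fold enrichment was 4.14, with a -log10 p of 5.57 and a -log10 q of 2.43 (q = 0.00372), and 4 fragments stacked at the summit (1.09 to 10.2). The summit was inside the gene, 2351 bp from its lower-coordinate end and 2160 bp from its upper end. RefSeq has 2 promoter sequences for Fth1 on the plus strand, and the summit was 305 bp downstream of the start site of the nearer one. The peak ranked 5575 by -log10 p and 4323 by fold enrichment, and 112 peaks of the list, this one included, had exactly its fragments, fold enrichment and p-value. A second peak fell just outside the window, 11.6 kb beyond the upper end of Fth1 and inside Best1, with 5 fragments (1.62 to 11.7), a fold enrichment of 4.97 and q = 0.000301. Ftl1, the light chain, is on chromosome 7 from 45457944 to 45459886 and had no called peak in its window. Its nearest peak was 23.1 kb below the gene, from 45434318 to 45434799. That peak held 10 fragments (4.80 to 18.4) at 6.93-fold enrichment (q = 5.56e-07), inside Ruvbl2, 1773 bp from an end of that gene.

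The promoter of Fth1 is shown because it is the RefSeq sequence nearest to a peak of these genes, and that of Blvra because it is the one in which a searched element was found. Both lines give the 250 bases before the annotated start site from RefSeq (GRCm38.p6, plus strand, 5′ to 3′). Fth1 covers chr19:9982396-9982645 and Blvra covers chr2:127070407-127070656, with the match to TGACNNNGC, the core of the antioxidant response element, in capitals on the Blvra line.
Fth1: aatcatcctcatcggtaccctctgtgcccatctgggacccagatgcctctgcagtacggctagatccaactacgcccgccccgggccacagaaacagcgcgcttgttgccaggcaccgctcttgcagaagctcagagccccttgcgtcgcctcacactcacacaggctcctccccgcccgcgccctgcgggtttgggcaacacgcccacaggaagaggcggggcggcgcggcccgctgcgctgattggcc
Blvra: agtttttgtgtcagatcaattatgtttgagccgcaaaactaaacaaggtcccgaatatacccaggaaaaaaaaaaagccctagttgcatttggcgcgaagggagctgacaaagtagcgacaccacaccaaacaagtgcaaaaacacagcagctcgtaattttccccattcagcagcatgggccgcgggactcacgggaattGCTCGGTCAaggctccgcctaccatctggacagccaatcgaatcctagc

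RefSeq promoter sequences, from 250 bases before to 50 after a start site, were matched for 7 of the 10 genes (12 sequences). Missing were Hmox1, Slc40a1 and Slc11a2. The core letters of the C/EBP-ATF element, TGATGNAA, searched on both strands, were in 0 of the 12 sequences, beside 3.97% of the 32851 promoter sequences of all genes. The cAMP response element TGACGTCA was in 0 of the 12 and in 1.79% of all. TGACNNNGC was in 1 of the 12 and in 12.4% of all. The match in Blvra began 49 bases before the start site and reads on the minus strand, and no peak lay near it. TGACGTCA cannot overlap TGATGNAA or TGACNNNGC on either strand, while the ends of TGATGNAA and TGACNNNGC can overlap on opposite strands. These counts describe the letters of these windows alone.

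Of the iron transport genes, Slc11a2, which encodes the iron importer DMT1, had a peak well inside the gene. The gene lies on chromosome 15 from 100387898 to 100424209 (36.3 kb), and the peak from 100399925 to 100400122 was 198 bp wide, with its summit inside the gene, 12126 bp from the nearer end. It held 3 fragments (0.619 to 8.77), the smallest number in the list, with a fold enrichment of 3.68, a -log10 p of 5.68 and a -log10 q of 2.43 (q = 0.00372). A total of 815 peaks had exactly these values and shared rank 4272 by -log10 p. The background at this peak was the lowest of the list. Its -log10 p was above that of Fth1, where the background was 2.42 times as high, although Fth1 had more fragments and a higher fold enrichment. The Poisson intervals of Hmox1, Fth1 and Slc11a2 overlap, so the 3 peaks cannot be ordered by their fragments at this depth.

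Tfrc, the transferrin receptor, is on chromosome 16 from 32608896 to 32632794 and was 225.9 kb from the nearest peak, the largest distance among the 10 genes. Slc40a1, which encodes the iron exporter ferroportin, is on chromosome 1 from 45908070 to 45926532 and was 163.0 kb from a peak of 3 fragments. Ireb2 encodes iron regulatory protein 2, which binds transcripts of ferritin and transferrin receptor when iron is scarce. It lies on chromosome 9 from 54862658 to 54912534, and its nearest peak was 20.9 kb beyond the gene, inside Hykk, with 3 fragments and a fold enrichment of 3.68. Within 50 kb of the gene ends, a distance chosen after seeing the data, 7 of the 10 genes had a summit, beside 45.4% of all protein-coding genes. Of these 10 summits, 2 had 6 or more fragments, those near Hmox2 and Ftl1 (2 of 10 genes, beside 17.2% of all). Blvra, Tfrc and Slc40a1 had none. A gene without a called peak is not shown to lack ATF4, since the smallest called peak needed 3 fragments at the summit.

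The position of the 3 peaks was then set beside all genes. All 3 overlapped the gene itself, a share of 30.0% beside 15.6% of all protein-coding genes. A summit within 1 kb of a gene end was found for Hmox1 alone, 1 of 10, beside 8.13% of all protein-coding genes. This rule takes the outermost ends of each gene. The Fth1 summit, 305 bp downstream of an annotated start site inside the gene, is therefore not counted. The windows of the 10 genes ran from 21.9 to 69.9 kb with a median of 41.2 kb, and those of all protein-coding genes had a median of 37.2 kb. The longest window among all protein-coding genes was 2410 kb, far above the 69.9 kb of the 10 genes. Over the summed windows there were 7.03 peaks per Mb for the 10 genes, resting on 3 peaks, and 4.63 per Mb for all protein-coding genes. Long windows weigh more in a summed length, and the densities were not matched for window length, so they are not a like comparison. With 10 genes, 1 more or 1 fewer gene with a peak moves each share by 10 percentage points, and no difference from the background was tested.

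**Figure D2:**
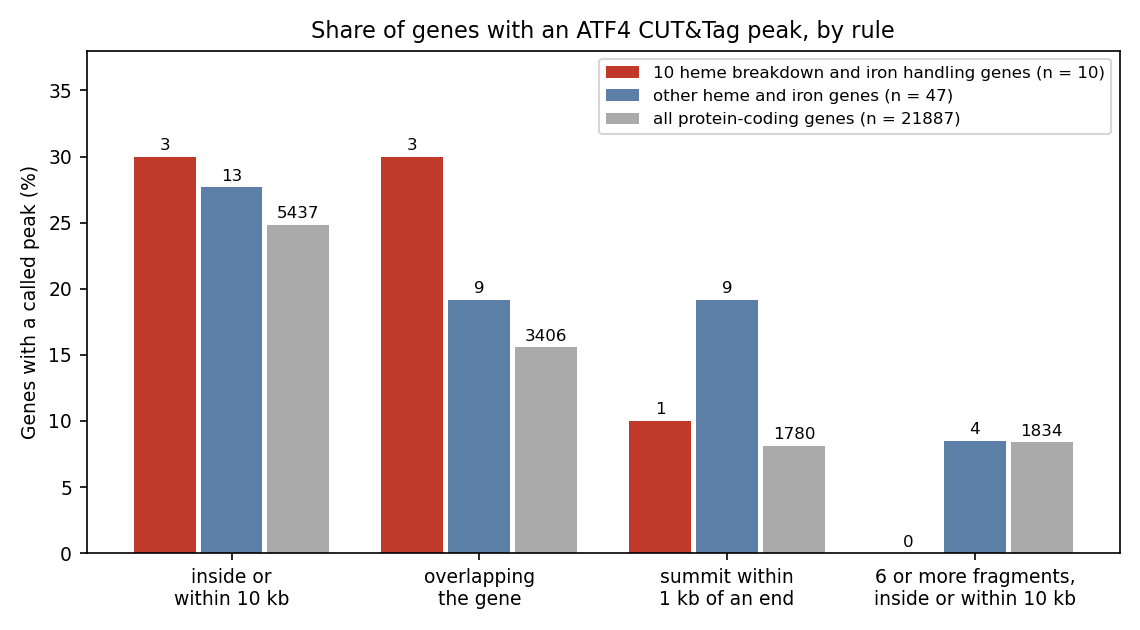
Share of genes with a called ATF4 CUT&Tag peak (y axis, percent) under 4 rules (x axis) for the 10 heme breakdown and iron handling genes (red), the 47 other heme and iron genes (blue) and all 21887 protein-coding genes (grey), with the number of genes above each bar. The 10 genes stand at 30.0% beside 24.8% for a peak inside or within 10 kb, and at 0 beside 8.38% when the peak must have 6 or more fragments.

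Further genes of heme and iron metabolism, 47 in 4 hand-written lists, were set beside them: 13 had a peak inside or within 10 kb (27.7%, beside the 24.8% above), and 4 had one of 6 or more fragments (8.51%). By list these were 3 of 9 heme synthesis genes, 4 of 20 heme and iron transport genes, 5 of 11 genes of iron storage, sensing and cofactors, and 1 of 7 regulators of heme oxygenase. Of the 47 genes, 9 had a summit within 1 kb of an end (19.1%, beside 8.13% of all protein-coding genes). Of the 10 genes 1 had such a summit (10.0%), a share that 1 gene more or fewer moves by 10 percentage points. The difference between the 2 groups of genes was not tested. The 15 peaks had a median of 5 fragments, and 11 of them had 3 to 5.

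Slc25a28, which encodes mitoferrin 2, a mitochondrial iron carrier, had the highest fold enrichment of these gene-end peaks. The 12 fragments (6.20 to 21.0) gave a 7.24-fold enrichment (q = 6.88e-08) between 43675015 and 43675590 on chromosome 19, 93 bp outside the gene and 79 bp from the lncRNA BC037704. Glrx5, a mitochondrial glutaredoxin of iron-sulfur cluster synthesis, had 7 fragments (2.81 to 14.4) and 6.72-fold enrichment (q = 4.85e-07) between 105032439 and 105032716 on chromosome 12, the summit being 4 bp inside the gene. The lncRNA genes Snhg10 and Gm46374 were also within 1 kb of it. Flvcr1, a heme exporter, had 7 fragments 148 bp outside the gene, at a fold enrichment of 5.80, inside the lncRNA A230020J21Rik. The intervals of Glrx5 and Flvcr1 overlap that of Hmox1, and so does that of Slc25a28.

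The promoters of Glrx5 and Slc25a28 are shown because, of the peaks with a summit within 1 kb of an end of these other genes, theirs had the highest fold enrichment and cover part of the promoter. No called peak covered a promoter sequence of the 10 genes where one was matched. The lines give the 250 bases before the RefSeq start site (GRCm38.p6, 5′ to 3′), chr12:105032368-105032617 on the plus strand for Glrx5 and chr19:43674882-43675131 on the minus strand for Slc25a28. Capitals mark the bases inside the called peak, 179 in Glrx5 and 117 in Slc25a28.
Glrx5: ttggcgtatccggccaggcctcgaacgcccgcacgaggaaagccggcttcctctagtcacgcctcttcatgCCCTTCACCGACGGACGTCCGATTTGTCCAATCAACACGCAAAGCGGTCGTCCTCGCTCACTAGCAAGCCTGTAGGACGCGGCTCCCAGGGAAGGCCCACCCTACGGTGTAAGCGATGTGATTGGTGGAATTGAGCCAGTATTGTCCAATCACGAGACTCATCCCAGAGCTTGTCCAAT
Slc25a28: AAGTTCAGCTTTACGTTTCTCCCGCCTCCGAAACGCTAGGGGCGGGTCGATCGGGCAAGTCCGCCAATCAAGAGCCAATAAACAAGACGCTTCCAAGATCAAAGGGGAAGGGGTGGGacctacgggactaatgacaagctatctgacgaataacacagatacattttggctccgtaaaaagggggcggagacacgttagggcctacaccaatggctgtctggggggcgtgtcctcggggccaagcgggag

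Alad, an enzyme of heme synthesis, had 4 fragments 169 bp inside its end. A further peak 5339 bp from Alad lay inside 4933430I17Rik and near Pole3. Aco1, which encodes iron regulatory protein 1 and so is the counterpart of Ireb2, had 5 fragments 206 bp outside its end, with a fold enrichment of 4.46. Slc25a39, a mitochondrial glutathione carrier, had 5 fragments 130 bp inside its end. Pcbp1 and Pcbp2, RNA-binding proteins that also hand iron to ferritin, each had a peak of 4 fragments and a fold enrichment of 4.26, and Pcbp1 had a second one of 3 fragments; the lncRNA genes 1600020E01Rik and Gm36331 lay within 1 kb of these. Alas2, the heme synthesis enzyme of red cells, had 3 fragments inside a stretch it shares with Apex2, and Lcn2, an iron-siderophore carrier, lay 7999 bp from a summit of 3 fragments at Ptges2. Like those of the 10 genes, these peaks rested on few fragments.

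Nfe2l2, Keap1, Bach1, Maff, Mafk and Cul3, the regulators of heme oxygenase 1 other than Mafg, had no called peak in their windows. Mafg, a small MAF partner of NRF2 and BACH1, was counted through a peak of 61 fragments (46.7 to 78.4), with a fold enrichment of 16.2 and rank 49 by -log10 p. Its summit lay 8894 bp outside Mafg and 101 bp from an end of Pycr1, an enzyme of proline synthesis, which was the nearest protein-coding gene. Without Mafg no peak in any of these windows, those of the 10 genes included, held more than the 12 fragments of Slc25a28.

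**Figure D3:**
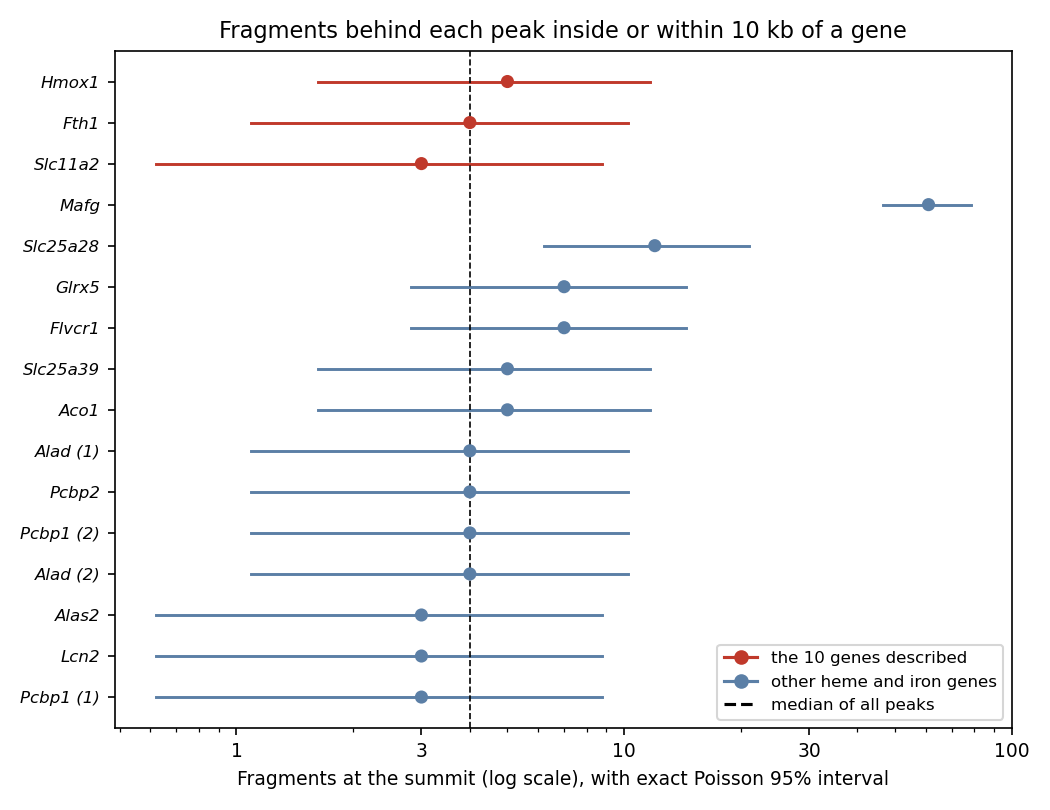
Fragments at the summit (x axis, log scale) of every peak inside or within 10 kb of the 10 genes (red) and of those of the other heme and iron genes that are reported by name (blue), with exact Poisson 95% intervals as bars, 1 row per peak and numbers in brackets for genes with 2 peaks; the dashed line is the median of all peaks, 4 fragments. The red points sit at 5, 4 and 3 fragments with overlapping intervals, and the Mafg window, whose summit is nearest to Pycr1, stands apart at 61.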

How the data were processed

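CUT&Tag libraries were made from 100000 neurons each with 14 PCR cycles, 1 with the ATF4 antibody and 1 with IgG. The submitters' processing notes name FastQC, BWA, MACS2 2.1.2, deepTools and mm10, without options, threshold or control. For each of the 7873 peaks, the authors deposited a display score, the fold enrichment (a ratio), the −log10 of the p-value and that of the q-value, of which the score is a truncated multiple.

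Genes, 1-based coordinates and promoter sequences are those of RefSeq GRCm38.p6, the assembly of mm10. The gene table holds no strand. Whole fragments at each summit were solved from fold enrichment, (fragments + 1)/(background + 1), and the p-value, taken as the Poisson probability of more fragments, to within 0.001 in -log10 p. This assumes the MACS2 formulas, and all 7873 peaks had a whole solution. If single reads were stacked, the numbers are reads. Total depth is not given in the sources used here. On 2000 simulated peaks the fragments were recovered in 100% of cases. The simulation used the same formulas, so it checks the solving step and not whether the deposited values follow them. Poisson intervals describe counting error alone, as PCR duplicates of 1 molecule may be counted more than once.

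The 10 genes and the lists were chosen with earlier results of these data known. Named genes are the 10, genes within 1 kb of their peaks, and up to 10 of the other genes in order of fold enrichment; Pcbp1 and Pcbp2 tied for the last place, and Alas2, Lcn2, the regulators without a peak, Tom1 and the neighbors of the other genes' peaks were named after their values were seen. Some of the other genes with a peak are counted but not reported by name here. Shares were set beside all 21887 protein-coding genes without a test. Alternatives were other windows, stricter peaks, summits in place of overlap and nearest-gene assignment. Software was Python 3.11.15 with pandas 2.3.3, scipy 1.17.1, numpy 2.4.6 and matplotlib 3.10.9.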

Additional observations from a re-analysis of the deposited data

How the results depend on the processing

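Hmox1, Fth1 and Slc11a2 were the 3 genes with a peak under each of the other windows (the gene alone, 5 kb and 20 kb), with the summit in place of overlap, and by nearest protein-coding gene. Of all protein-coding genes 21.0% had a peak with 5 kb and 31.2% with 20 kb, so that at 20 kb the 30.0% of the 10 genes was below that share, and at 10 kb above it. With a -log10 q of at least 5, or with at least 6 fragments, the count was 0 of 10, since those peaks have 3 to 5 fragments. The count of all protein-coding genes was 1367 (6.25%) and 1834 (8.38%) under these thresholds, and 3406 (15.6%) with the gene alone, against 5437. The 47 other heme and iron genes gave 3 and 4 genes under the thresholds, and 21 with 20 kb (44.7%, beside the 31.2% of all), against 13. For a summit at a gene end, 3 kb in place of 1 kb added Fth1 (2 of 10, beside 11.3% of all protein-coding genes), 500 bp left Hmox1 (6.65% of all), and the thresholds gave 0 of 10 (2.74% of all by q and 3.74% by fragments). A summit within 50 kb, chosen after seeing the data, gave 7 of 10. The stricter letters TGATGCAA were in 0 of the 12 promoter sequences of the 10 genes, beside 0.895% of all promoter sequences. Hmox1, Slc40a1 and Slc11a2 had no sequence to search. Without the pseudocount of 1, 0.0889% of peaks gave whole fragments and none of the 3 peaks did. No paired analysis was possible because each antibody had 1 library, and no replicate could be left out. With 3 to 5 fragments a peak, the depth does not allow the peaks to be ordered, and neither IgG nor repeat annotation was used here.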

Other observations

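Among the 47 other heme and iron genes, 36 had RefSeq promoter sequences (53 in all). TGATGNAA was in 0 of the 53, beside 3.97% of all promoter sequences. TGACGTCA was in 2 (3.77%, beside 1.79% of all), those of Abcg2, a transporter that exports heme and drugs, and Maff. TGACNNNGC was in 9 (17.0%, beside 12.4% of all). Of the genes with TGACNNNGC, Flvcr1 had a summit within 1 kb of its end, and the others had none there. Of all protein-coding genes 8.13% had one. The letters were searched on both strands, in the 250 bases before and 50 after each start site, and several sequences can belong to 1 gene.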
